A study of Rattus with 6 samples.

Results

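The elastic fibre and fibrillin microfibril genes studied here are 10 genes named by symbol: Fbn1, Fbn2, Eln, Fbln1, Fbln2, Fbln5, Efemp1, Efemp2, Ltbp1 and Mfap5. All 10 were in the deposited table of 30211 genes. RNA was sequenced from cultured rat bone marrow mesenchymal stem cells (BMSC), adherent marrow cells with the capacity to become osteoblasts, adipocytes or chondrocytes. The dexamethasone group held 3 libraries from cells kept for 4 days with 100 uM of this synthetic glucocorticoid, and the control group held 3 libraries from cells kept for 4 days without it. The labels give the genotype WT and the tissue bone for both groups. The strain, sex and age of the rats, and any vehicle given to the controls, are not stated in the labels. The labels' treatment tag reads DEX for all 6 samples, so the groups follow the titles. Nothing in the labels says whether the replicates were separate cultures or animals, so each p-value reflects just the spread between libraries, which may be technical.

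Elastic fibres give stretch and recoil to matrix. Their core is elastin, encoded by Eln, which is secreted as a soluble monomer and crosslinked by lysyl oxidases. The core forms on a scaffold of microfibrils, which are polymers of fibrillins with associated glycoproteins, and fibulins help to bring elastin, the enzymes and the microfibrils together. Latent TGF-beta binding proteins attach inactive TGF-beta to the same microfibrils, which also occur without elastin in many tissues, bone among them.

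Library totals ranged from 34835072 to 41676315 counts. Levels are CPM, the count scaled to a common library size, after TMM scaling, a correction for differences in library composition. Fkbp5, Tsc22d3 and Per1, which glucocorticoids are known to induce, served as a check of the titles. They stood at 1370 ± 72.2, 125 ± 3.29 and 45.9 ± 2.71 CPM with dexamethasone, against 69.8 ± 1.06, 17.0 ± 1.46 and 14.9 ± 0.569 CPM in controls (SD, n = 3 each). Of 11 tested stromal markers, 4 rose, 6 fell and 1 did not pass the test, and their summed level was 2612 to 2640 CPM with dexamethasone and 4003 to 4061 CPM in controls. The levels of single markers moved widely, with Prrx1 at 75.6 CPM with dexamethasone and 727 CPM in controls, and Pdgfrb at 137 CPM with dexamethasone and 616 CPM in controls. Pdgfra rose by 0.69 on the log2 scale, and Thy1 did not pass, at 134 CPM with dexamethasone and 133 CPM in controls. These 4 markers were named after their values were seen.

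With dexamethasone, 5 of the 10 genes fell, 2 rose and 3 were too scarce to test. The falls were in Fbn1, Fbln1, Fbln2, Fbln5 and Ltbp1, and the rises in Efemp2 and Eln. A gene was called when its adjusted p was below 0.05 by edgeR's quasi-likelihood test, corrected by the Benjamini-Hochberg method over all 14111 genes tested. By this rule 64.0% of the tested genes were called, 32.3% higher and 31.7% lower, so a call alone does not set these genes apart. The values of the dexamethasone and control libraries did not overlap for the 7 tested genes, nor for 66.9% of all tested genes. The median log2 fold change, dexamethasone over control, was -1.80 over the 7 and -0.00019 over all tested genes.

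**Figure D1:**
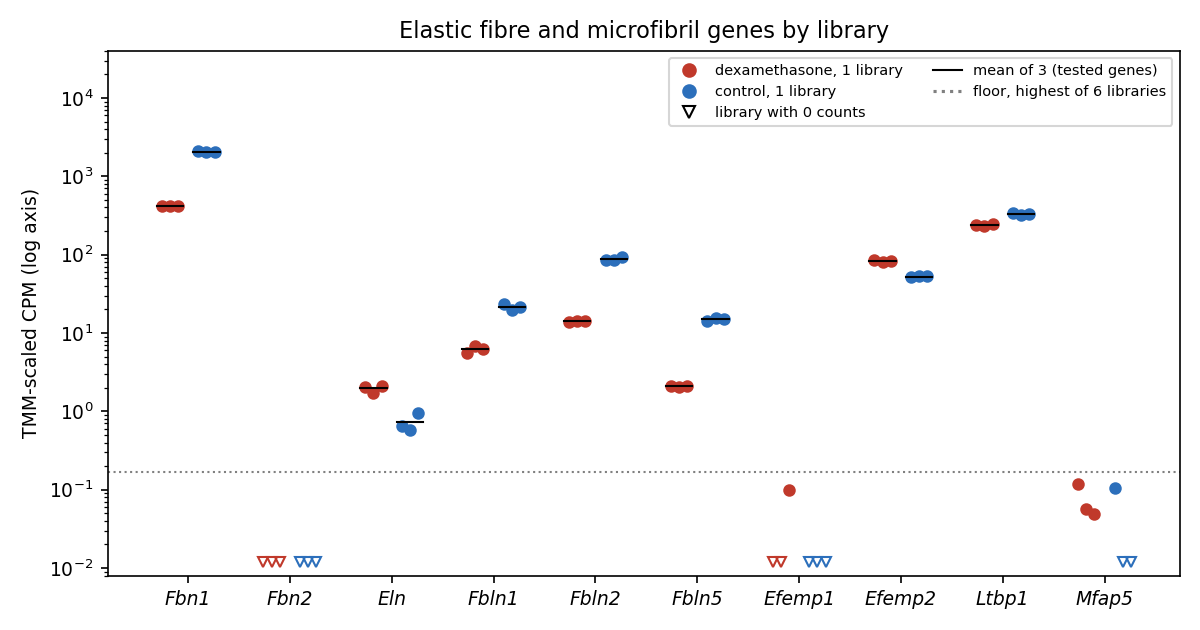
TMM-scaled CPM (log axis) of the 10 genes in each library, dexamethasone at the left and control at the right of each gene. Points are libraries, bars are means of 3, open triangles are libraries with 0 counts, and the dotted line is the highest floor of the 6 libraries, 0.170 CPM. The libraries of the 2 groups stand apart for the 7 tested genes, and Fbn2, Efemp1 and Mfap5 lie under the floor.

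Fbn1 encodes fibrillin-1, the main structural protein of microfibrils after birth. It lies on the minus strand of chromosome 3 from 117569697 to 117766120 in the table's own coordinates, for which no rat build is named in the labels. Fbn1 had 415, 413 and 421 CPM in dexamethasone replicates 1 to 3, against 2083, 2047 and 2015 CPM in control replicates 1 to 3. All 3 dexamethasone libraries were far below all 3 controls, and within each group the libraries lay close together. The level was 4.92-fold lower with dexamethasone, a log2 fold change of -2.30 ± 0.016 (SE; adjusted p = 5.65e-47, edgeR's quasi-likelihood test). Among all tested genes ordered from the largest fall, Fbn1 stood at 2.44%. The unnamed gene AABR07053635.1 overlaps 95 bases (0.960%) of its exons on the opposite strand and had a log2 fold change of -2.11. The counting is not stated to use strand, so reads in that stretch cannot be told apart.

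Fbn2, on chromosome 18, encodes fibrillin-2, the fibrillin best known from embryonic microfibrils. It had 0 counts in all 6 libraries. Because low values came mostly in steps of 2, the limit for a count of 0 was put at 6 counts (3 read pairs), called the floor here, which allows Fbn2 up to 0.142 to 0.170 CPM by library. The counts assigned to the fibrillins therefore came from Fbn1 in all 6 libraries.

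Eln (chromosome 12, 24978483 to 25021863, plus strand) was scarce. It had 87, 61 and 86 counts in dexamethasone replicates 1 to 3, or 2.06, 1.73 and 2.12 CPM. In control replicates 1 to 3 it had 25, 23 and 38 counts, or 0.648, 0.583 and 0.950 CPM. The lowest dexamethasone library was above the highest control, though the controls spread more widely for their level than those of any other tested gene of the set. Eln was 2.71-fold higher with dexamethasone, a log2 fold change of 1.44 ± 0.22 (SE; adjusted p = 2.42e-06, edgeR's quasi-likelihood test). The ratio of its 234 to 86 counts had an exact 95% binomial interval of 1.90 to 3.95 on read pairs, which covers counting error only. Per kilobase of exon its level ranked 12401 of 14111 tested genes with dexamethasone and 13318 in controls.

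The fibulins did not move as one. Fbln5 encodes fibulin-5, which binds elastin and cell surface integrins (chromosome 6, 125644804 to 125723944, minus strand). Fbln5 had 2.13, 2.04 and 2.12 CPM in dexamethasone replicates 1 to 3, against 14.3, 15.7 and 15.0 CPM in control replicates 1 to 3. The dexamethasone libraries held 248 counts in all and the controls 1773. Its fall was the largest of the set, 7.14-fold, a log2 fold change of -2.84 ± 0.043 (SE; adjusted p = 4.01e-26, edgeR's quasi-likelihood test).

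Fbln2 encodes fibulin-2, a larger fibulin that binds fibrillin-1 and fibronectin (chromosome 4, 122835436 to 122895121, plus strand). It had 13.9, 14.4 and 14.4 CPM in dexamethasone replicates 1 to 3, against 84.4, 85.2 and 93.5 CPM in control replicates 1 to 3. Control replicate 3 was the highest, and every control was far above every dexamethasone library. Fbln2 was 6.16-fold lower (log2 fold change -2.62 ± 0.050 SE, adjusted p = 1.38e-37, edgeR). Fbln1 encodes fibulin-1, found in elastic fibres and basement membranes (chromosome 7, 126096793 to 126176468, plus strand). It had 5.54, 6.78 and 6.16 CPM with dexamethasone, against 23.1, 19.8 and 21.3 CPM in controls. The groups were well apart, and the fall of 3.49-fold was smaller than those of Fbln2 and Fbln5 (log2 fold change -1.80 ± 0.11 SE, adjusted p = 1.34e-22, edgeR).

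Efemp2 went the other way. It encodes fibulin-4, which binds lysyl oxidase and elastin and is required for elastic fibres to form in mice (chromosome 1, 220854403 to 220861420, plus strand). Efemp2 had 85.1, 81.1 and 82.5 CPM in dexamethasone replicates 1 to 3, against 51.9, 53.0 and 52.8 CPM in control replicates 1 to 3. Every dexamethasone library was above every control. The rise was 1.58-fold, a log2 fold change of 0.66 ± 0.022 (SE; adjusted p = 2.66e-19, edgeR's quasi-likelihood test). Against a fold change of 1.5 in place of no change the rise still passed, with an adjusted p of 0.0465 (edgeR).

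Efemp1 encodes fibulin-3, which in structure is the closest relative of fibulin-4 in the family. It had 0, 0 and 4 counts in dexamethasone replicates 1 to 3 and 0 counts in the 3 controls, so it was under the floor in every library and was not tested. Mfap5 encodes microfibril-associated glycoprotein 2, a small protein that binds fibrillins. It had 5, 2 and 2 counts with dexamethasone, against 4, 0 and 0 counts in controls, also under the floor throughout, and no fold change is given for either gene.

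Ltbp1 encodes a latent TGF-beta binding protein, which is secreted joined to inactive TGF-beta and attaches it to microfibrils (chromosome 6, 21203502 to 21600451, minus strand). It had 237, 234 and 243 CPM in dexamethasone replicates 1 to 3, against 344, 325 and 333 CPM in control replicates 1 to 3. The groups did not overlap, but the fall was only 1.40-fold, a log2 fold change of -0.49 ± 0.029 (SE; adjusted p = 2.95e-19, edgeR's quasi-likelihood test). This call was lost with the biological coefficient of variation set to 0.2 (adjusted p = 0.123, edgeR's likelihood ratio test), where 6 of the 7 tested genes and 26.2% of all tested genes were called. It was also lost against a fold of 1.5 (adjusted p = 1), where 6 of the 7 and 20.0% of all tested genes were called. In whole cultures, fewer cells of a type and less RNA per cell cannot be told apart, here or for the other genes.

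Levels of different genes were compared as CPM per kilobase of exon. With dexamethasone, Efemp2 came first at 52.7 ± 1.29, followed by Fbn1 at 42.1 ± 0.455 and Ltbp1 at 38.1 ± 0.783 (SD, n = 3), with no overlap between neighbours. Fbln2 at 3.30 ± 0.070, Fbln1 at 1.91 ± 0.192, Fbln5 at 0.845 ± 0.020 and Eln at 0.549 ± 0.058 came next, also without overlap. In controls the head of the order was different. Fbn1 was the most abundant of the set at 207 ± 3.43, ahead of Ltbp1 at 53.5 ± 1.48, Efemp2 at 33.4 ± 0.377 and Fbln2 at 20.3 ± 1.17 (SD, n = 3). Fbln1 at 6.65 ± 0.515 and Fbln5 at 6.05 ± 0.277 had library values that overlapped, and Eln was lowest of the tested genes at 0.203 ± 0.055.

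**Figure D2:**
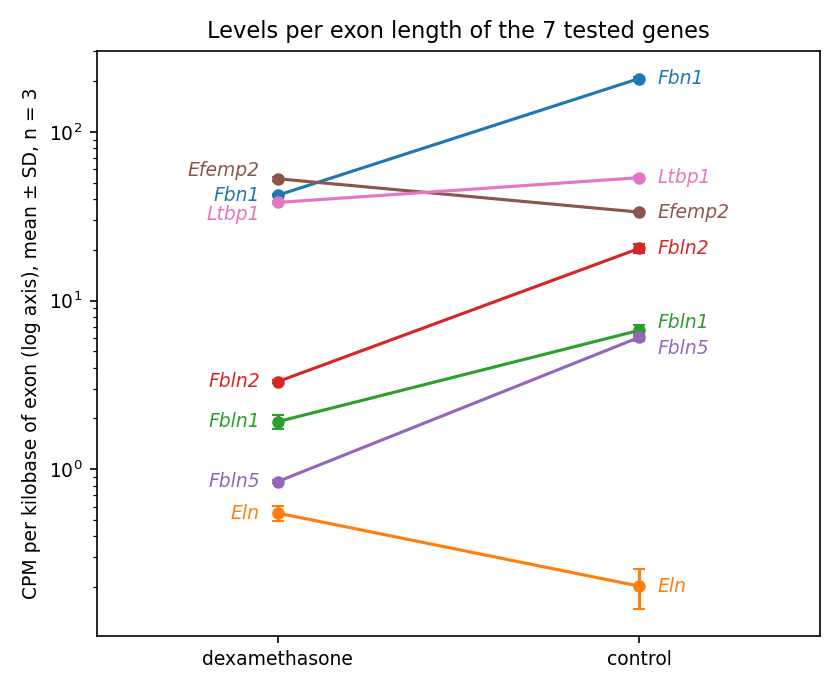
Mean CPM per kilobase of exon (log axis) of the 7 tested genes with dexamethasone at the left and in controls at the right, bars showing the SD over 3 libraries. Fbn1 is at 42.1 with dexamethasone and 207 in controls, Efemp2 and Eln slope the other way, and Efemp2 stands above Fbn1 and Ltbp1 with dexamethasone.

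Shares within a library do not depend on scaling between libraries. Fbn1 made up 29.8%, 30.4% and 30.3% of the summed level per kilobase of the 10 genes in dexamethasone replicates 1 to 3, against 63.5%, 63.7% and 62.6% in control replicates 1 to 3. Efemp2 made up 37.7% ± 0.681 with dexamethasone and 10.2% ± 0.225 in controls, and Ltbp1 27.3% ± 0.336 with dexamethasone and 16.3% ± 0.300 in controls (SD, n = 3 each). The sum itself was 138 to 141 CPM per kilobase with dexamethasone and 325 to 331 in controls. Libraries of one group differed little in makeup, while the shares of Fbn1, Efemp2 and Ltbp1 did not overlap between the groups.

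**Figure D3:**
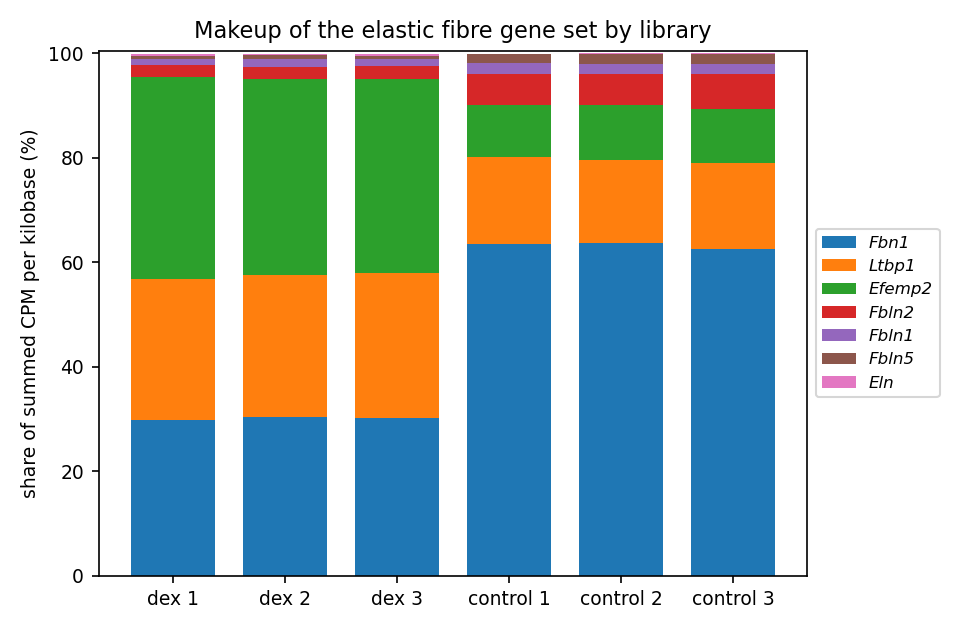
Share (%) of each of the 7 tested genes in the summed CPM per kilobase of the 10 genes, 1 bar per library, dexamethasone at the left and controls at the right. Fbn1 takes 29.8% to 30.4% of the bar with dexamethasone and 62.6% to 63.7% in controls, and Efemp2 the largest share with dexamethasone.

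Among the short fibulins, Efemp2 made up 98.4%, 98.4% and 98.3% of the level per kilobase of Fbln5, Efemp1 and Efemp2 together in dexamethasone replicates 1 to 3, against 85.1%, 84.2% and 84.7% in control replicates 1 to 3. Nearly all of the rest was Fbln5, at 1.58% ± 0.019 with dexamethasone and 15.3% ± 0.455 in controls (SD, n = 3 each). Between the larger fibulins, Fbln1 made up 34.8%, 38.7% and 36.3% of Fbln1 and Fbln2 together with dexamethasone, against 26.8%, 23.7% and 23.4% in controls. Neither share overlapped between the groups. Both differences gave p = 0.1 in a two-sided exact permutation test, the smallest p that 3 libraries against 3 allow. The level of Fbn1 relative to Ltbp1, per kilobase, was 1.10 ± 0.011 with dexamethasone and 3.87 ± 0.088 in controls. That of Ltbp1 relative to Efemp2 was 0.724 ± 0.021 with dexamethasone and 1.60 ± 0.062 in controls.

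The wider elastic fibre pathway was described with 8 further lists of 108 genes, of which 98 were in the table and 75 tested. Of these, 41 fell, 28 rose and 6 missed the threshold, and the median log2 fold change was -0.58. The 69 called of 75 tested are to be read against the 64.0% called among all tested genes, which include many scarce ones. With a mean of at least 5 CPM required, 62 of 65 list genes and 7206 of 9772 genes in all were called. Levels below are means ± SD of 3 libraries, p-values are from edgeR's quasi-likelihood test adjusted over all tested genes, and the 24 genes named by rule had an adjusted p of at most 8.16e-14.

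Among 9 tested microfibril partners there were 3 rises, 3 falls and 3 genes that did not pass. Their median log2 fold change was -0.01. Emilin1, which encodes a glycoprotein at the border of elastin and microfibrils, stood at 256 ± 3.57 CPM with dexamethasone and 926 ± 17.3 CPM in controls (log2 fold change -1.85). The other members of the LTBP family could be set beside Ltbp1. Ltbp2, which binds fibrillin-1 but not latent TGF-beta, had 443 ± 6.34 CPM with dexamethasone and 747 ± 2.06 CPM in controls (log2 fold change -0.75). Ltbp3, another carrier of latent TGF-beta, had 149 ± 3.90 CPM with dexamethasone and 268 ± 5.45 CPM in controls (-0.84). Ltbp4, named after its values were seen, had 14.6 CPM with dexamethasone and 14.0 CPM in controls and did not pass (log2 fold change 0.05, adjusted p = 0.551, edgeR). Mfap2, the close relative of Mfap5, also named afterwards, had 14 counts with dexamethasone and 17 in controls over 3 libraries each and was not tested.

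Of 7 tested genes of the ADAMTS and ADAMTS-like families whose members bind or process fibrillins and their partners, 3 rose, 3 fell and 1 did not pass. Adamtsl2, a secreted protein that binds fibrillin-1 and LTBP1, had 763, 589 and 684 counts in dexamethasone replicates 1 to 3, against 0, 0 and 2 counts in control replicates 1 to 3. The ratio of these counts was 1018, with an exact 95% binomial interval of 182 to 40248 on read pairs. Adamtsl4, which promotes fibrillin-1 deposition, rose to 39.7 ± 1.28 CPM with dexamethasone, against 15.2 ± 1.67 CPM in controls. Adamts6, a protease, had 19.6 ± 0.20 CPM with dexamethasone and 31.2 ± 0.336 CPM in controls (log2 fold change -0.67), a call lost against a fold of 1.5 (adjusted p = 0.103, edgeR).

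All 10 listed genes for crosslinking and assembly were tested and called, 7 higher and 3 lower, with a median log2 fold change of 0.41. Tgm2, a transglutaminase that crosslinks matrix proteins, rose to 120 ± 5.98 CPM with dexamethasone, against 33.1 ± 0.899 CPM in controls. The lysyl oxidases split. Loxl3 rose (102 ± 2.31 CPM with dexamethasone, 28.1 ± 1.56 CPM in controls), as did Loxl1, the family member that acts with fibulin-5 in mice, by 0.23 on the log2 scale. Loxl4 fell (13.4 ± 1.04 CPM with dexamethasone, 45.2 ± 2.96 CPM in controls), as did Lox and Loxl2 (log2 fold change -0.53 and -0.52). Lox, Loxl1 and Loxl2 were named after their values were seen. Per kilobase, Lox remained the most abundant of the 5, at 165 ± 2.35 CPM with dexamethasone and 239 ± 2.91 CPM in controls.

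Of 11 tested proteases and inhibitors linked to elastin turnover, 7 fell and 3 rose, and 1 missed the threshold. The median log2 fold change was -1.14. Mmp2, a gelatinase that can cleave elastin, had 367 ± 10.3 CPM with dexamethasone and 1139 ± 9.02 CPM in controls. Mmp9, the other gelatinase, had 0.296 ± 0.158 CPM with dexamethasone and 31.7 ± 1.47 CPM in controls. The dexamethasone level rested on 16, 4 and 16 counts in replicates 1 to 3, with replicate 2 under the floor of 6 counts. Timp2, an inhibitor of matrix metalloproteinases, rose to 994 ± 12.5 CPM with dexamethasone, against 378 ± 7.06 CPM in controls. The inhibitors did not share a direction. Timp1 and Slpi fell, at 651 and 5.34 CPM with dexamethasone against 1335 and 44.7 CPM in controls. Timp4 rose, with 207 counts with dexamethasone and 10 in controls. Among the other proteases, Mmp3, Mmp10 and Mmp14 fell and Ctsl rose (log2 fold change 0.33). Timp1, Slpi, Timp4, Mmp3, Mmp10, Mmp14 and Ctsl were named after their values were seen. The elastases Mmp12 and Elane, named after their values were seen, were near or at 0, with 6 and 0 counts with dexamethasone against 8 and 0 counts in controls.

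Of 11 tested genes listed as receptors for fibrillin, fibulin or elastin, or as parts of them, 4 rose, 6 fell and 1 did not pass. The list also held genes of lysosomal enzymes, Glb1 and Ctsa, which rose, and Neu1, which fell. They were named after their values were seen. The integrin subunits Itgav and Itgb5, which pair into a receptor for fibrillin-1 and other matrix proteins, stood at 92.1 ± 3.94 and 128 ± 2.48 CPM with dexamethasone, against 159 ± 2.20 and 209 ± 2.14 CPM in controls. Exons of AC133403.1 (1758 bases in all) overlap those of Itgb5 (3889 bases) on the opposite strand, so the value of Itgb5 is uncertain. Sdc4, a cell surface heparan sulphate proteoglycan, rose to 1008 ± 21.2 CPM with dexamethasone, against 629 ± 5.31 CPM in controls.

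Growth factors of the TGF-beta superfamily, only some of which microfibrils are known to hold, were listed with carriers and cell surface anchors. They gave 4 rises and 3 falls among 7 tested genes. Inhba, which encodes a subunit of activin, had 112, 112 and 113 CPM in dexamethasone replicates 1 to 3, against 2573, 2643 and 2610 CPM in control replicates 1 to 3 (log2 fold change -4.54). Bmp2 and Tgfb1 fell to 1.35 ± 0.042 and 7.01 ± 0.721 CPM with dexamethasone, against 15.3 ± 0.460 and 27.7 ± 1.77 CPM in controls. Of 12 tested genes that TGF-beta is known to induce or that act in its signalling, 2 rose and 10 fell, with a median log2 fold change of -1.61. Pmepa1, which TGF-beta induces and which dampens its signalling, fell by 5.05 on the log2 scale. Ccn1, a matricellular protein, fell by 1.86, and Ski, a repressor of SMAD signalling, by 1.31. Ccn2, a matricellular protein named afterwards, was among those that rose (log2 fold change 0.70).

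Scaffold genes fell more often than they rose, with 2 rises and 7 falls among 9 tested and a median log2 fold change of -0.74. Col16a1, a fibril-associated collagen known to occur near fibrillin microfibrils in skin, had 311 ± 1.36 CPM with dexamethasone and 1177 ± 16.8 CPM in controls. Bgn, which encodes biglycan, a proteoglycan that binds elastin, had 161 ± 4.06 CPM with dexamethasone and 462 ± 5.71 CPM in controls. Col6a1, a chain of the beaded-filament collagen type VI, rose to 637 ± 14.4 CPM with dexamethasone, against 251 ± 6.14 CPM in controls.

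**Figure D4:**
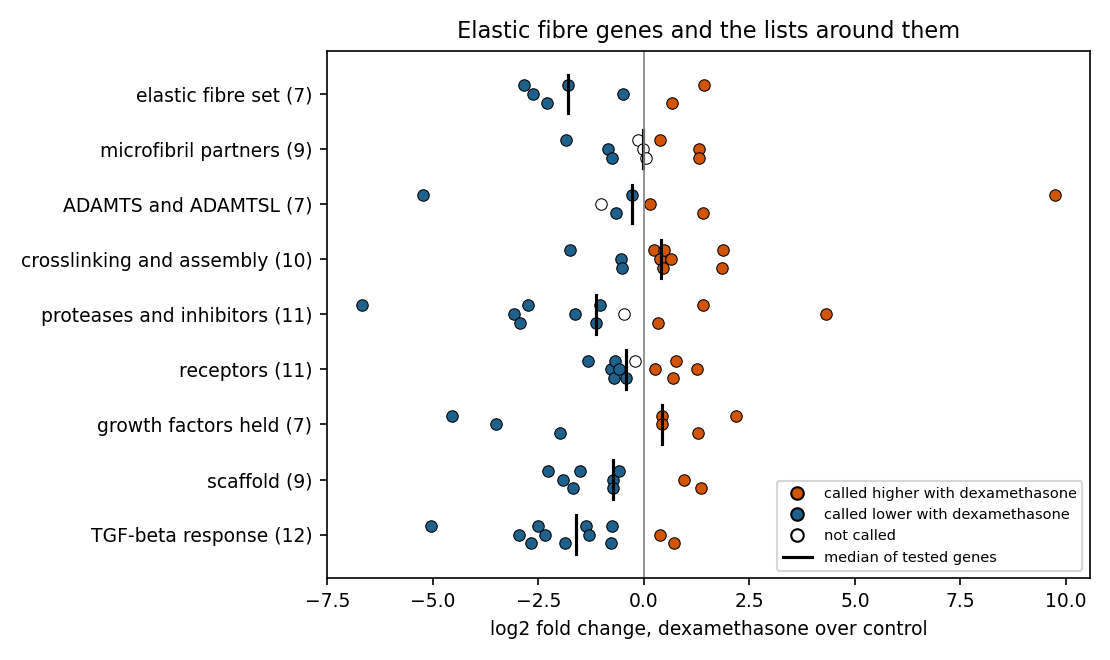
Log2 fold change, dexamethasone over control, of each tested gene of the elastic fibre set and of 8 lists around it, with the number tested in brackets. Colours mark genes called higher, called lower or not called, and bars mark medians, from -1.80 for the elastic fibre set to 0.41 for crosslinking and 0.42 for growth factors. The points farthest out among the ADAMTS and ADAMTSL genes rest on 2 counts in one group, so their fitted values depend on the prior count.

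The profiles closest to that of Fbn1 over the 6 libraries, by Euclidean distance of centred log2 CPM among 9769 genes averaging 5 CPM or more, were those of Lrrc8b, a volume-regulated anion channel subunit, Col12a1, a fibril-associated collagen, and Hspa4l, a heat shock protein (distances 0.082, 0.097 and 0.12). Those closest to Eln were AABR07064878.1, Tasp1, a protease, and Eif4ebp2, a repressor of translation initiation (0.21, 0.34 and 0.36). With 2 groups this likeness mostly reflects a similar size of group difference.

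Markers of other cell types were checked because elastin and fibulins are also made outside the stroma. Of 10 tested smooth muscle markers, 4 rose, 5 fell and 1 did not pass. They summed to 628 to 632 CPM with dexamethasone and 474 to 480 CPM in controls. Most of that difference came from Lmod1, named after its values were seen, at 149 CPM with dexamethasone and 4.17 CPM in controls. Of 9 endothelial markers in the table, 4 were tested, with 1 rise and 3 falls, and they summed to 7.35 to 8.03 CPM with dexamethasone and 12.0 to 12.9 CPM in controls, with Emcn at 0. Of 12 macrophage markers, 4 were tested and 1 fell, with sums of 8.65 to 9.34 CPM with dexamethasone and 9.37 to 10.3 CPM in controls, and Adgre1, Cd163, C1qa and C1qb at 0. Of 6 chondrocyte markers, 2 were tested and both fell, with sums of 3.52 to 3.72 CPM with dexamethasone and 27.5 to 29.1 CPM in controls, and Col9a1 at 0. Of 8 adipocyte markers, 3 were tested, with 1 rise and 1 fall, and they summed to 7.68 to 11.1 CPM with dexamethasone and 4.43 to 5.07 CPM in controls, with Lep at 0. Of 9 blood cell markers in the table, 1 was tested and fell, with sums of 0.542 to 0.596 CPM with dexamethasone and 0.363 to 0.557 CPM in controls, and Elane, Mpo and Cd79a at 0. The part of these cell types in the changes of the elastic fibre genes was not tested.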

How the data were processed

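The deposited values were raw read counts per gene for the 6 libraries in 1 table, with exon positions and lengths, per the file headers. The exon length (another unit, in bases) is the authors' deposited value. Per the submitters' processing notes the build was mm10, though the table holds rat symbols. Not given in the sources used here were the aligner, the counting program and the strand setting. Of values from 1 to 20 counts, 70.3% were even, against 50.6% of values of 1000 or more. A floor of 6 counts was therefore used.

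The members and lists were chosen with earlier results of these data known, and 10 genes of the pathway lists were not analysed here. Genes were filtered with filterByExpr, leaving 14111 tested. Counts were scaled by TMM and fitted with edgeR 4.0.16 (R 4.3.3; robust quasi-likelihood, no covariate, Benjamini-Hochberg adjustment). Standard errors come from the replicate spread of log2 CPM (prior count 2). For each list, the 3 called genes with the smallest p are named, with all 10 members, 3 check genes and the nearest profiles of Fbn1 and Eln. Others are marked where named, and some items are not reported here. Scripts were tested on simulated data. Pairs of replicates differed by more than the sampling noise of independent counts (chi-square per degree of freedom 2.70 to 4.16). Reads counted in pairs would raise this value by themselves, so the size of the excess is uncertain. Alternatives used DESeq2 1.42.0 and limma 3.58.1 (voom), other scalings and filters, a coefficient of variation of 0.2, a fold of 1.5, a replicate block and each library left out.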

Additional observations from a re-analysis of the deposited data

How the results depend on the processing

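The 7 tested elastic fibre genes kept their direction under the 15 alternatives, except that Eln was not tested with a mean of at least 5 CPM required, which left 6. Their calls held too, except that of Ltbp1 with the coefficient of variation at 0.2 or against a fold of 1.5. Without each replicate in turn, 7 members were called throughout, 68 to 69 genes of the other lists (69 with all libraries) and 8570 to 8757 of all tested genes. With a coefficient of variation of 0.2, 3693 genes (26.2%) were called, and against a fold of 1.5, 2827 (20.0%), in place of 9027. With counts not divided by length, the share of Efemp2 among the short fibulins differed by 19.7 percentage points in place of 13.7, and that of Fbln5 by -19.7 in place of -13.7, dexamethasone minus control. Those differences were 13.5 to 13.9 and -14.0 to -13.5 without each replicate, and 10.9 to 13.0 for Fbln1 among Fbln1 and Fbln2. The labels do not say whether replicate numbers pair the samples. Deviations of same-numbered libraries correlated at 0.0026, -0.0078 and 0.020, which cannot show how the samples were prepared. With the replicate block 8991 genes and 7 members were called. Depth limits Eln, Efemp1, Mfap5 and Fbn2.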

Other observations

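The 3 TGF-beta ligand genes, described together after their values were seen, did not share a direction. Tgfb1 had 7.01 CPM with dexamethasone and 27.7 CPM in controls, a log2 fold change of -1.99. Tgfb2 had 3.41 CPM with dexamethasone and 0.743 CPM in controls (log2 fold change 2.19), and Tgfb3 had 8.43 CPM with dexamethasone and 6.27 CPM in controls (0.42). Each was called (adjusted p at most 4.94e-04, edgeR's quasi-likelihood test). Hmcn1, a large matrix protein of the fibulin family also named afterwards, had 68.7 CPM with dexamethasone and 27.8 CPM in controls (log2 fold change 1.30, adjusted p = 3.21e-27, edgeR).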
